A study of Homo sapiens with 3 samples.

Results

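The response of U87WT cells to insulin-like growth factor 1 (IGF1) was read from the Cy5 channel of 2 oligonucleotide arrays as the difference in log2 level between cells given IGF1 and cells kept in serum-free medium. U87WT is U87WT 5, a stable G418-selected clone of the human glioblastoma line U-87MG transfected with GFP-IGF1R, a wild-type receptor fused to green fluorescent protein that reaches the nucleus. Its cells were kept for 24 h in serum-free medium, in 50 nM IGF1, or in 50 nM IGF1 with OSI906, which blocks signaling by IGF1R and by the insulin receptor. The labels give 0.5 μM OSI906 in the sample's title and protocol and a higher dose in its medium entry. The Cy3 channel of each array held U87Mut 5 (U87Mut), a clone of the same line whose GFP-IGF1R has 3 lysines replaced so that the receptor stays out of the nucleus. The vector and the selection are shared by every condition, each construct is represented by 1 clone, and each condition by 1 array. No value therefore has a replicate error or a p value, and the results below are differences between single arrays.

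Of 58201 probes that are not controls, 31405 were taken as measured in U87WT: their Cy5 spots were well above background on both arrays and lay outside a bright patch of the IGF1 array. They carry the names of 16790 of the 24993 genes named on the arrays, and each gene is represented by its brightest measured probe, by the mean of the 2 levels. A log2 difference past 0.5, which is 1.41-fold, was used as the limit of size. In RNA from a whole culture, a change per cell and a change in the share of cells that make an RNA cannot be told apart.

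IGF1 binds its receptor tyrosine kinase, which passes the signal through the IRS adaptors to PI3K and AKT and through GRB2 to the RAS and ERK cascade. AKT keeps FOXO transcription factors out of the nucleus and so lowers the genes they switch on, mTORC1 raises ATF4 and the synthesis of amino acids, lipids and ribosomes, and ERK induces its own inhibitors of the Sprouty and DUSP families. In glioma the pathway is known for growth, survival and motility.

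The 3 arrays lay on 1 slide and were read in 1 scan, with a median Cy5 brightness of 33 to 35, a median local background of 21 to 22 and 0 saturated Cy5 spots on each. The clone's markers were read first. Of 11 genes of mesenchymal glioma cells 10 had a probe well above background, among them VIM, an intermediate filament protein, at 15.80 in serum-free medium and 15.55 after IGF1. The astrocyte filament gene GFAP had 0 of 2 probes well above background. CDKN2A, known to be deleted in U-87MG, had 1 of 2 probes well above background, at 7.96 and 7.92. Of the neuronal list, the vesicle fusion gene SNAP25 was at 10.36 and 9.40 and the microtubule gene MAP2 at 9.71 and 9.80, while 3 of 5 neuronal markers in all had a probe well above background. EPCAM, at 7.15 and 7.05, had the highest level among the leukocyte, endothelial and epithelial markers.

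Over all measured probes 521 were higher after IGF1 by more than 0.5 (1.66%) and 763 were lower (2.43%). By gene, 292 were higher (1.74%) and 503 lower (3%). A further 2661 probes were well above background after IGF1 but not in serum-free medium, and 2151 the other way round. The quartiles of the difference over measured probes were -0.11 and 0.10 and its median was 0.00. For 279 probes with repeated spots, up to 10 each, the median SD of the difference over spots was 0.083. This covers the spots of 1 hybridization and not a repeat of the culture. Different probes of a gene differed more. Among 264 genes past the limit with a second measured probe, the second probe had the same sign in 201 (76.1%) and was past 0.5 the same way in 49 (18.6%). The balance of higher and lower probes depended on the scaling. With quantile normalization 40.6% of the probes past the limit were higher, and with each channel centered on its own median 91.6% were, while the median of all probes moved to 0.11.

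Raised Cy5 background moved with part of the rises. Beside the bright patch, with 27 spots whose background exceeded 1000, another area at the edge of the IGF1 array held 391 spots with a background above 100, up to 962, and the serum-free array had smaller areas up to 373. Spots with a Cy5 background above 30 or marked as non-uniform in Cy5 on either array, with their neighbors, held 1227 of the measured probes, and this limit was set after the values were seen. Of these probes 16.5% were past 0.5, against 3.58% of the others, and of the 97 probes higher by more than 1 they held 73 (75.3%). The 5 highest genes of all, STX5-DT (2.64), CACNA1C-AS2 (2.38), SLC4A9 (2.25), IGSF1 (2.24) and LOC101928264 (2.19), lay there, as did FCRL1, the third lowest (-2.17). STX5-DT had a second probe, outside these areas, at -0.05. Without these areas 233 of 16310 genes were higher (1.43%) and 476 lower (2.92%), and 24 probes were higher and 54 lower by more than 1. Of the probes well above background on 1 of the 2 arrays alone, 78 were higher and 33 lower past the limit, and 0 of either kind lay outside these areas. Genes described from here on lie outside them unless it is said that they do not.

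**Figure D1:**
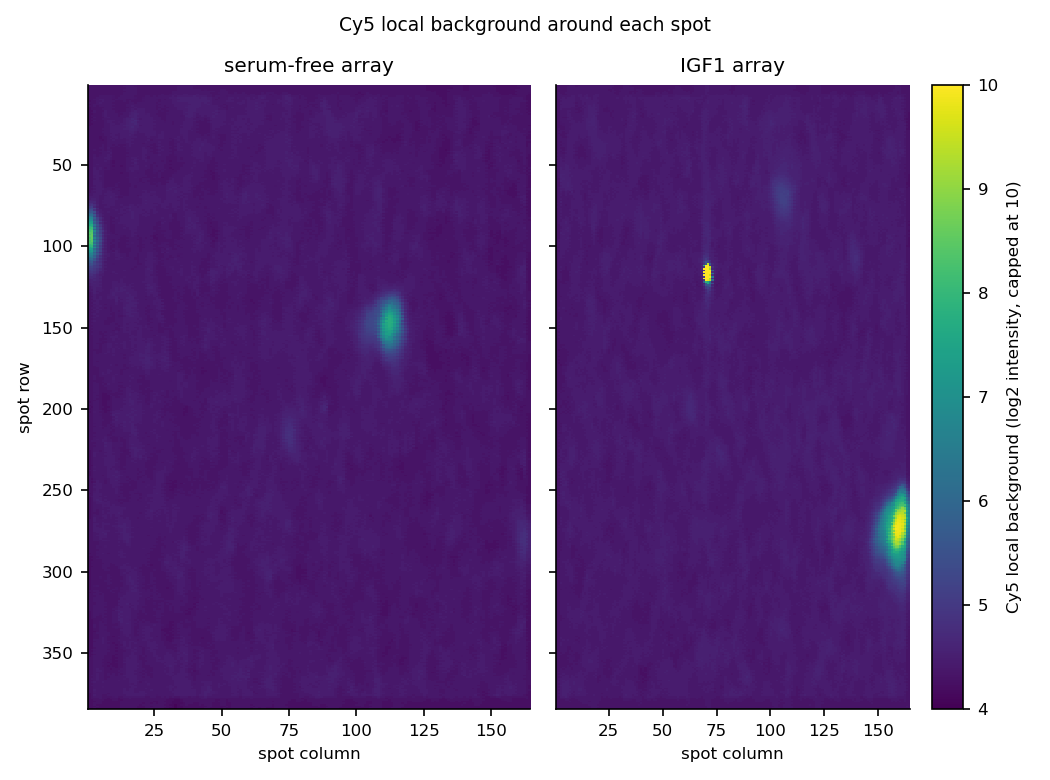
Cy5 local background around every spot of the serum-free array (left) and the IGF1 array (right), by spot row and column, on a log2 scale capped at 10. The IGF1 array holds the bright patch and the area at its right edge that reaches 962, and the serum-free array holds weaker areas up to 373.

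**Figure D2:**
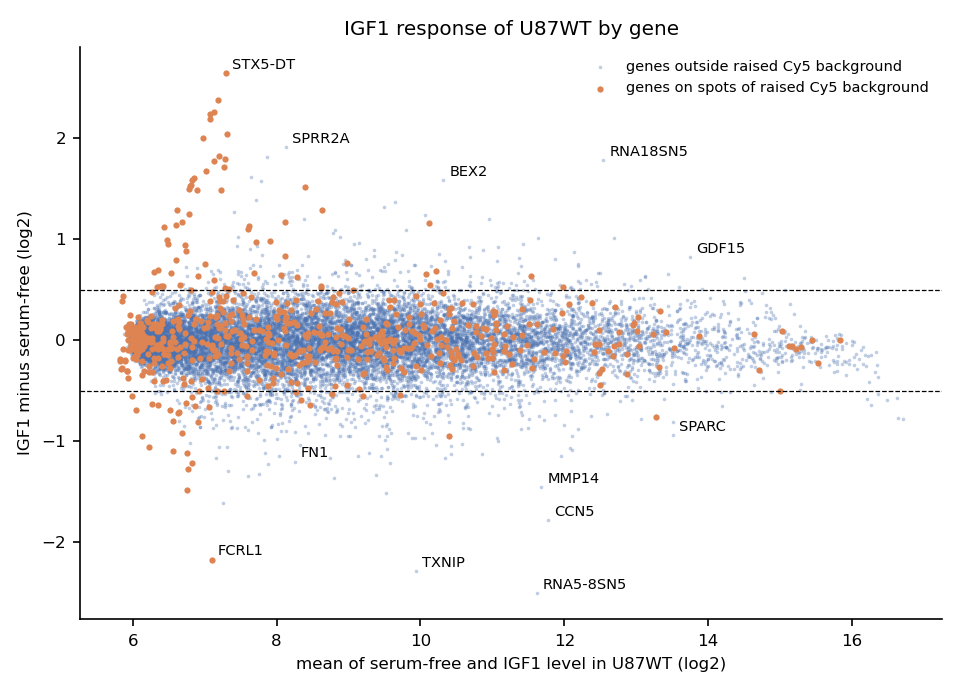
Log2 difference between the IGF1 and serum-free arrays in U87WT against the mean level, 1 point per gene (16790 genes), with dashed lines at 0.5 and -0.5. Genes on spots of raised Cy5 background (orange) form a band of dim genes that reaches 2.64, and the labeled falls RNA5-8SN5, TXNIP, CCN5 and MMP14 lie outside that band.

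Among messenger RNAs the lowest difference outside these areas was that of TXNIP, thioredoxin-interacting protein, which restrains glucose uptake and is a known FOXO and glucose-responsive gene. Its level was 11.08 on the serum-free array, 8.79 on the IGF1 array and 11.53 on the array with OSI906. The IGF1 array stood below both others, with a difference of -2.29, so that TXNIP was 4.88-fold lower after IGF1. CCN5, a secreted matricellular protein, read 12.66, 10.88 and 12.58 on the serum-free, IGF1 and OSI906 arrays. It was 3.44-fold lower after IGF1 and with OSI906 stood close to its serum-free level. MMP14, the membrane-anchored collagenase, read 12.40, 10.95 and 11.96 and was 2.74-fold lower.

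Other large falls were spread over several roles. DAPL1, named for its likeness to a death-associated protein, had 2 probes at -1.51 and -0.69. TENM2, an adhesion receptor, had 2 probes at -1.34 and -1.06. The sialic acid-rich surface protein CD24 read 10.18, 8.97 and 9.37 on the 3 arrays. The galactosyltransferase gene B3GALT4 (-1.34), the phosphatase gene PTPN9 (-1.32) and ATF6B, a sensor of endoplasmic reticulum stress (-1.29), were also past 1. PTPN9 and ATF6B were as low with OSI906 (7.01 and 6.82) as after IGF1 alone (7.10 and 6.69), which sets them apart from TXNIP and CCN5. PRKAA1, a catalytic subunit of AMP-activated kinase, was at -1.23 by its brighter probe and at -0.20 by the other. APOE, a lipid carrier, was at -1.05 and was picked out after its value was seen.

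The highest differences of messenger RNAs outside these areas were those of SPRR2A and SPRR2E, of the SPRR2 family, small proline-rich proteins of the cornified envelope that stress and growth signals induce in epithelia. SPRR2A read 7.17 in serum-free medium, 9.08 after IGF1 and 7.55 with OSI906. It was 3.75-fold higher on the IGF1 array and close to its serum-free level with OSI906. SPRR2E was higher by 1.81, SPRR2D by 1.61 and SPRR2F by 1.57, and SPRR2C, a transcribed pseudogene of the family, by 1.26. These genes are near-identical in sequence, so their probes may read each other's RNA and the 5 values are not independent. The dimmer probe of SPRR2A gave 0.45. The other probe of SPRR2D, which was the brighter in serum-free medium (7.34 against 6.84) and the dimmer after IGF1, gave 0.38.

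BEX2, a brain-expressed gene linked to survival of glioma cells, read 9.52, 11.11 and 9.82 and was higher by 1.58. KRT80, a keratin, read 8.84, 10.16 and 8.76, and HKDC1, a hexokinase, read 9.44, 10.68 and 9.33. For these probes of BEX2, KRT80 and HKDC1 the IGF1 array was the highest of the 3, and the array with OSI906 was no further than 0.30 from the serum-free array. The dimmer HKDC1 probe read 8.04, 8.58 and 8.37. It was higher by 0.54 after IGF1 and by 0.33 with OSI906. AAGAB, an adaptor of vesicle traffic, was at 10.35, 11.56 and 11.17, so the OSI906 array lay nearer to the IGF1 array. SP2-DT, a long noncoding RNA, was at 7.79, 8.98 and 8.99. The complement receptor C5AR1 was higher by 1.09, OSCAR, a receptor of the immunoglobulin family, by 1.09 with a second probe at 0.29, and the pseudogene GUSBP4 by 1.06.

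**Figure D3:**
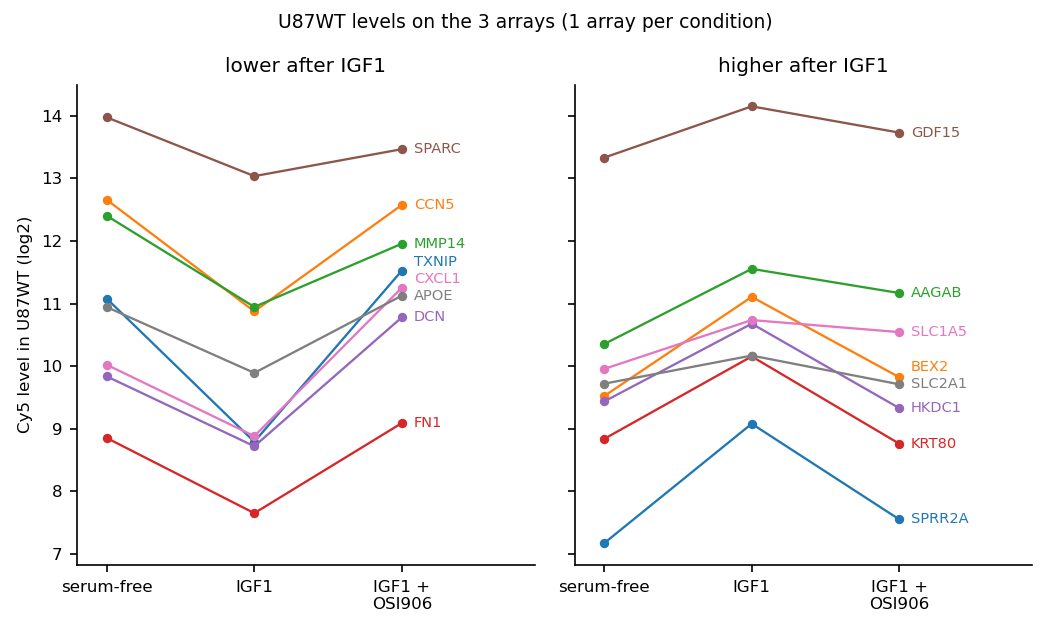
Log2 Cy5 level of 16 genes in U87WT on the serum-free, IGF1 and IGF1 with OSI906 arrays, 8 that were lower (left) and 8 that were higher (right) after IGF1, 1 array per condition and no error bars. TXNIP goes from 11.08 to 8.79 and back to 11.53, and SPRR2A from 7.17 to 9.08 and back to 7.55.

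In the pathway itself the ligand genes read near the floor, with IGF1 at 6.08 and 6.07 and IGF2 at 5.95 and 6.01. Beside 1.74% higher and 3% lower over all genes, 0 of 7 measured ligand and binding protein genes were past the limit. The receptor genes stayed within it: IGF1R read 8.84 in serum-free medium and 8.94 after IGF1, and INSR 8.63 and 8.75. Whether the IGF1R probe reads the transfected copy was not tested. Of 21 receptors and adaptors 1 was higher (4.76%) and 2 were lower (9.52%), with a median of 0.07 against -0.01 over all genes. GRB2, which links receptors to RAS, was higher by 0.60. IRS1, the main adaptor of IGF1R, was lower, at -0.67 with a second probe at -0.36, and PIK3R1, the regulatory subunit of PI3K, was lower at -0.72. IRS1 read 8.40, 7.73 and 8.47 on the 3 arrays, so its level with OSI906 was close to that of serum-free medium. PIK3R1 read 9.35, 8.63 and 8.82 and stayed low with OSI906, and GRB2 read 9.76, 10.36 and 10.05.

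Of 28 measured genes that FOXO factors are known to induce, 0 were higher and 2 lower, beside 1.74% and 3% of all genes. Of their differences 32.1% were above 0, beside 47.4% over all genes, and the median was -0.14. TXNIP and MXI1, a MYC antagonist, were past the limit, MXI1 at -0.54 with other probes up to -0.06. CDKN1B, the cell cycle inhibitor p27, was at -0.48, catalase (CAT) at -0.46 and IRS2 at -0.30, within the limit. With median centering 1 of the 28 was higher and 1 lower, and the median was 0.09, against 0.15 for all genes. Of 24 ERK targets and feedback genes 3 were higher (12.5%) and 2 lower (8.33%), with a median of 0.08. The phosphatase gene DUSP5 (7.13, 7.79 and 6.82) and cyclin D1, CCND1 (8.68, 9.22 and 9.25), were higher, and the Sprouty gene SPRY4, at 0.95, lay on raised background and had a second probe at 0.13. Their relatives DUSP6, also on raised background, and SPRY2 were at -0.30 and -0.13. The immediate early genes EGR1 (-0.76) and FOS (-0.50) were lower.

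**Figure D4:**
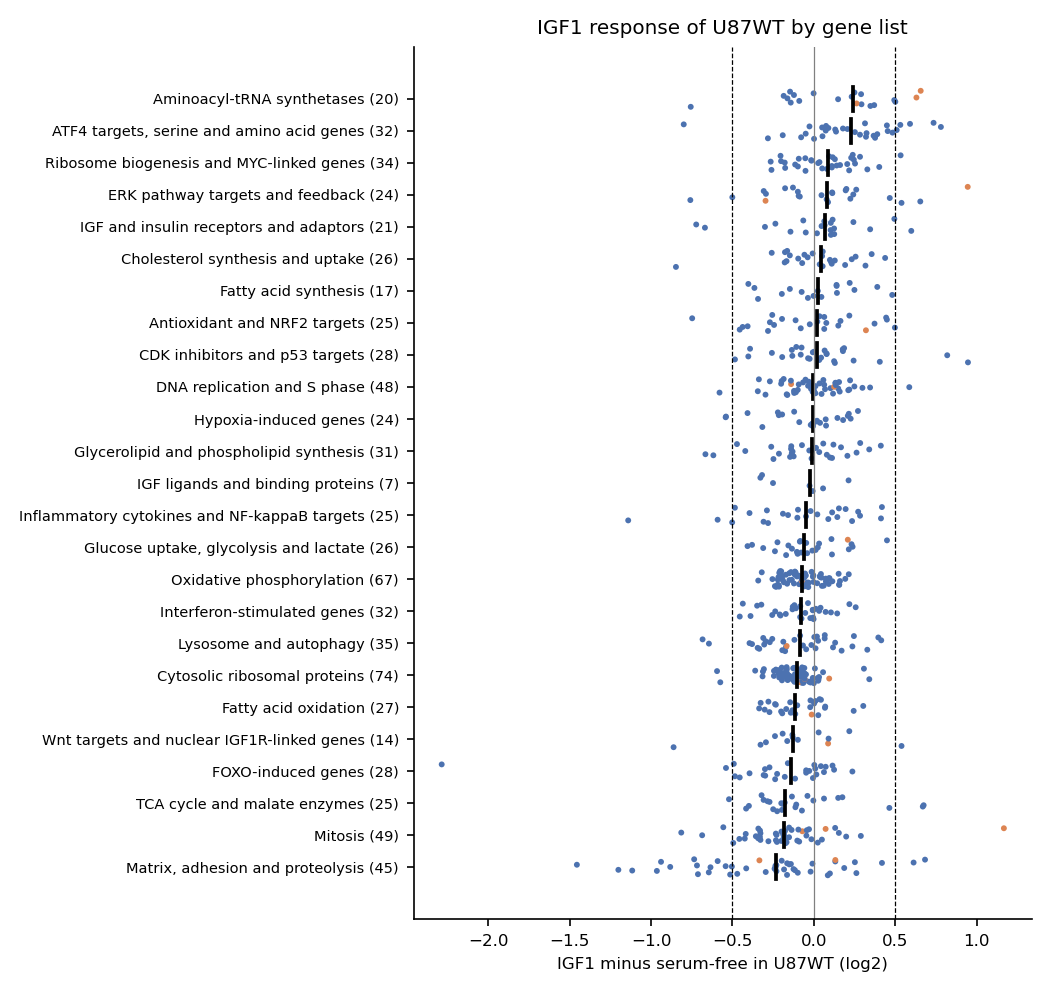
Log2 difference between the IGF1 and serum-free arrays in U87WT for the genes of 25 lists, 1 point per gene, with the number measured in parentheses, a black bar at each median, dashed lines at 0.5 and -0.5, and genes on raised Cy5 background in orange. The matrix list has 15 of 45 genes below -0.5 and a median of -0.23, and the tRNA synthetase and ATF4 lists have medians of 0.24 and 0.23.

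Genes of the extracellular matrix, adhesion and proteolysis had a median of -0.23, with 15 of 45 lower (33.3%) and 2 higher (4.44%) beside 3% and 1.74% of all genes. Without the areas of raised background it was 15 lower and 2 higher of 43. Fibronectin (FN1), which links cells to the matrix, read 8.85, 7.65 and 9.09 and was 2.30-fold lower. Decorin (DCN), a proteoglycan that binds collagen and growth factors, read 9.84, 8.72 and 10.78, and its other probe was at -0.51. SPARC, a matricellular protein, read 13.98, 13.04 and 13.47. For FN1 and DCN the OSI906 array was above the serum-free array, and for SPARC it lay between the others. The fibrillar collagens COL1A1 (-0.71) and COL5A2 (-0.65), the network collagen COL8A1 (-0.96), the laminin chains LAMB1 (-0.88), LAMA4 (-0.63) and LAMC1 (-0.50), the proteoglycans VCAN (-0.74) and LUM (-0.72), thrombospondin 2, THBS2 (-0.59), the crosslinking enzyme LOX (-0.54) and the hyaluronan receptor CD44 (-0.51) were the rest of the lower genes with MMP14. Tenascin C, TNC (0.68), was among the higher genes. MMP2, a secreted gelatinase, was at -0.15. With median centering 6 of the 45 were lower and the median was 0.02, against 0.15 for all genes under that scaling.

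The counts of glucose and energy metabolism genes stand beside 1.74% higher and 3% lower over all genes. SLC2A1, which encodes the glucose transporter GLUT1 measured in the study, read 9.72 in serum-free medium, 10.17 after IGF1 and 9.71 with OSI906, a difference of 0.45 that did not reach the limit. In U87Mut the same probe gave 0.46. Of 26 genes of glucose uptake, glycolysis and lactate 0 were past the limit, with LDHA at -0.01 (second probe 0.32), LDHB at 0.01 (0.42), the lactate exporter SLC16A3 at -0.08, HK2 at -0.24 and GAPDH at -0.04. The list does not hold the hexokinase gene HKDC1, which was higher by 1.24. None of 67 oxidative phosphorylation genes was past it, and their differences ran from -0.34 to 0.21. Of 25 TCA cycle and malate enzymes 2 were higher, the isocitrate dehydrogenases IDH1 (12.17, 12.84 and 11.90) and IDH3A (7.83, 8.50 and 7.75), and SDHA, a complex II subunit, was lower at -0.52, with its 3 other probes from -0.14 to 0.04. The list had a median of -0.18 and 6 of 25 differences above 0 (24.0%), beside 47.4% of all genes and 28.4% of the oxidative phosphorylation list. MDH1 and CS were at -0.20 each, with second probes at 0.0058 and 0.12. With median centering 3 of the 25 were higher and 0 lower, and the median was 0.09, against 0.15 for all genes.

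The lipid lists held 0 higher genes and 3 lower ones, beside 1.74% and 3% of all genes. Of 17 genes of fatty acid synthesis 0 were past the limit, with fatty acid synthase (FASN) at -0.15, the desaturase SCD at 0.14 and SREBF1, their transcription factor, at -0.40 by one probe and 0.28 by the other. The acyl-CoA synthetase gene ACSL5 was at -0.30 and CPT1A, which admits fatty acids to mitochondria, at -0.17, and 0 of 27 genes of fatty acid oxidation were past the limit. Of 31 genes of glycerolipid and phospholipid synthesis 2 were lower: choline kinase beta, CHKB (-0.62), and DGAT1 (-0.67), which makes triglycerides and whose 2 other probes were at 0.19 and 0.30. PCYT1A, the rate-controlling enzyme of phosphatidylcholine synthesis, was at 0.17 and LPIN1 at -0.01. Of 26 cholesterol genes 1 was lower, the acetoacetyl-CoA thiolase ACAT2 (9.89, 9.04 and 9.53), with a median of 0.04. CH25H, which makes 25-hydroxycholesterol, read 12.58, 11.63 and 12.40, a difference of -0.94 that the OSI906 array did not show.

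ATF4 targets with the genes of serine and amino acid supply had a median of 0.23, with 26 of 32 differences above 0 (81.2%), 5 higher (15.6%) and 1 lower, beside 47.4%, 1.74% and 3% of all genes. With median centering 17 of the 32 were higher and the median was 0.53, against 0.15 for all genes. The glutamine carrier SLC1A5 read 9.96, 10.74 and 10.55 and the tRNA exporter XPOT 9.78, 10.51 and 9.67. TRIB3, a pseudokinase induced by stress, was higher by 0.59, SLC7A5, a carrier of large amino acids, by 0.53 and PSAT1, an enzyme of serine synthesis, by 0.51, while asparagine synthetase (ASNS) was at 0.38 and PCK2 at 0.45. STC2, a secreted glycoprotein, was lower at -0.80. The whole list had a median of 0.30 on the OSI906 array against serum-free medium, a comparison that shares the serum-free array. Among 20 tRNA synthetases the median was 0.24 with 3 higher and 1 lower, but YARS1 (0.66) and MARS1 (0.63) lay on raised background. Outside it 1 of 18 was higher, GARS1 (0.50), 1 was lower, AARS1 (-0.76), and the median was 0.07. The p53 and growth arrest list had 2 of 28 higher, the stress cytokine GDF15 (13.33, 14.15 and 13.73) and the apoptosis gene BAX (0.95, second probe 0.21), and the cyclin-dependent kinase inhibitor CDKN1A was at 0.03.

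The counts of the cell cycle lists also stand beside 1.74% higher and 3% lower over all genes. Of 48 DNA replication genes 1 was higher, the helicase subunit MCM7 (0.59, second probe 0.00), and 1 lower, with PCNA at 0.01 and a median of 0.00. Mitosis genes had a median of -0.19, with 8 of 49 differences above 0 (16.3%, beside 47.4% of all genes), 1 higher and 3 lower (6.12%). The proliferation marker MKI67 (-0.81, with other probes at -0.57 and, on raised background, at -0.06), the spindle gene HMMR (-0.69) and the ubiquitin-conjugating enzyme gene UBE2C (-0.56) were lower. TOP2A, the 1 higher gene of the mitosis list at 1.17, lay on raised background. The median of the mitosis list was -0.27 on the OSI906 array against the same serum-free array, and -0.01 after IGF1 in U87Mut. With median centering 2 of the 49 were higher and 1 lower, and the median was -0.0029, against 0.15 for all genes. MYC was at -0.10, and of 34 ribosome biogenesis and MYC-linked genes 1 was higher, UTP20 (0.53).

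Of 25 cytokine and NF-kappaB genes 0 were higher and 3 lower (12%), beside 1.74% and 3% of all genes. CXCL1, a neutrophil chemokine, read 10.02, 8.88 and 11.26, CXCL2 10.71, 10.12 and 11.92, and CCL2, which draws monocytes, 8.14, 7.64 and 9.40. For each of these the OSI906 array was the highest of the 3 and the IGF1 array the lowest. The list's median was -0.05 after IGF1 and 0.89 with OSI906, both against the same serum-free array. SOD2, the mitochondrial superoxide dismutase and an NF-kappaB target, followed with 13.65, 12.90 and 14.24. Of 25 antioxidant genes it was the 1 lower, and 0 were higher, or 1 without the spots of raised background, where AKR1C1 moved from 0.32 to 0.56. SOD1 was at -0.20, JUN and TGFB1 at -0.29 and -0.19, and LEF1 at -0.16. Of 14 Wnt and nuclear IGF1R-linked genes 1 was higher, CCND1, and 1 lower. The lower gene AXIN2, a Wnt target, was at -0.86 by its brighter probe and -0.23 by the other. WASHC2C, a subunit of the WASH complex, was at 0.03 with other probes down to -0.78, and WASHC2A had no measured probe. Of 32 interferon-stimulated genes 0 were past the limit, and of 24 hypoxia genes 2 were lower, MXI1 and LOX, which other lists hold too. Among 35 lysosome and autophagy genes progranulin, GRN (-0.64), and the transcription factor MITF (-0.68) were lower.

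Ribosomal RNAs were among the largest changes in both directions. The 5.8S ribosomal RNA gene RNA5-8SN5 read 12.87, 10.36 and 13.68, 5.66-fold lower after IGF1, and the 18S gene RNA18SN5 read 11.65, 13.43 and 13.79, 3.43-fold higher. The 2 RNAs come from 1 precursor and moved in opposite directions, and with OSI906 both stood above serum-free medium. Each was read by 1 probe, which in U87Mut gave -0.28 for RNA5-8SN5 and 0.60 for RNA18SN5. The cause was not tested. Small nucleolar RNAs, which guide the modification of ribosomal RNA, were looked at as a class after the values were seen. Of 216 genes 24 were lower (11.1%) and 1 was higher, with a median of -0.08, beside 2.92% and 1.43% of all genes. SNORA65 read 9.71, 8.56 and 7.80 and SNORA27 10.74, 9.70 and 10.98. In U87Mut, on the same arrays, 22 of the 24 lower genes were above 0, with a median of 0.28. The U87Mut median was also above 0 over all 216 genes of the class, at 0.10, beside -0.02 over all named genes. The 24 were brighter in U87WT than the class, with a median level of 8.15 against 6.95. Cytosolic ribosomal protein genes had a median of -0.10 with 0 of 74 higher and 2 lower, RPS2 (-0.59) and RPL13 (-0.57), with other probes up to -0.01 for RPS2 and, on raised background, at 0.04 for RPL13. Both read above 0 with median centering, and RPL13 also with centering on the 75th percentile.

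Fewer genes were past the limit in U87Mut, which shared the 2 arrays but not the dye. Over 15125 genes outside raised Cy5 background and well above background in both channels, 233 were higher (1.54%) and 469 lower (3.1%) in U87WT, and 149 (0.985%) and 260 (1.72%) in U87Mut. The genes higher in both numbered 22, 9.44% of those of U87WT and 14.8% of those of U87Mut, and those lower in both 98, 20.9% and 37.7%. The difference between the clones was not tested, since each has 1 value per gene, and the dye cannot be told apart from the clone. CCN5 (-1.24), CXCL1 (-1.03), COL8A1 (-0.97) and ACAT2 (-1.13) were past the limit in U87Mut too, as were SPRR2A (0.74), BEX2 (0.91) and HKDC1 (0.62). TXNIP was at -0.41 there, with levels of 10.64 and 10.22, MMP14 at 0.07 and FN1 at -0.31. Cholesterol genes had a median of -0.36 in U87Mut and 0.04 in U87WT, and the matrix list -0.28 and -0.23. Over all measured probes the 2 sets of differences had a Pearson correlation of 0.31 and a Spearman correlation of 0.28, a description over probes that share both arrays and are not independent.

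**Figure D5:**
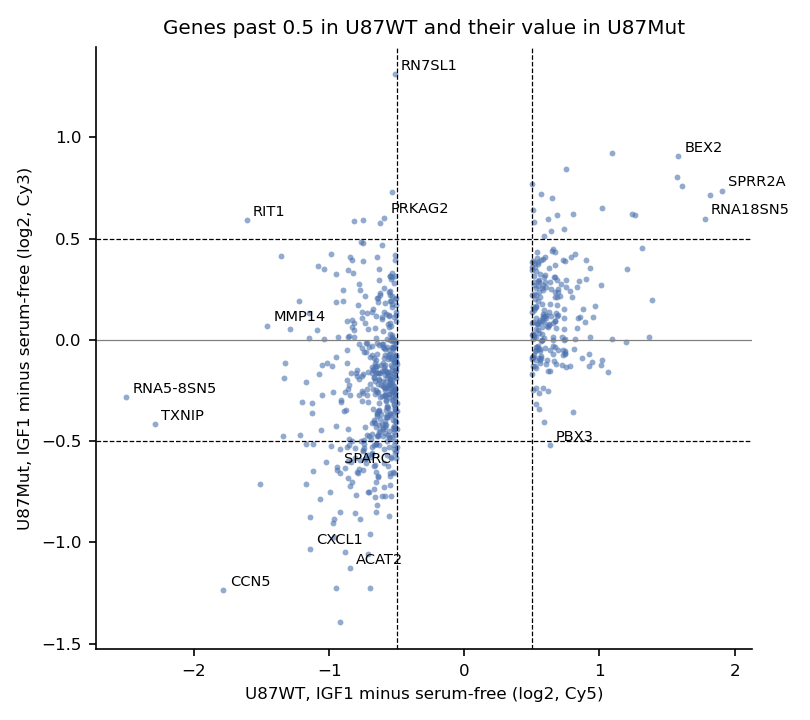
Log2 difference between the IGF1 and serum-free arrays in U87Mut (Cy3) against that in U87WT (Cy5) for the genes outside raised Cy5 background that were past 0.5 in U87WT, with dashed lines at 0.5 and -0.5. CCN5, CXCL1, BEX2 and SPRR2A are past the limit in both clones, and TXNIP and MMP14 in U87WT alone.

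Promoter stretches of 4 of these genes are shown as examples so that their letters can be read beside the values. They were picked after the values were seen, each for holding a motif of a factor that is known to act in the pathway, and other promoters hold such motifs too. They come from RefSeq, build GRCh38.p14, written 5′ to 3′ on the gene's strand, all upstream of the start, with the motif in capitals. TXNIP, the lowest messenger RNA, holds the FOXO motif GTAAACA at -124 (chr1:145996637-145996763, minus strand). SPRR2A and SPRR2F, among the highest, hold the AP-1 motif TGAGTCA at -197 and -196 (chr1:153057643-153057762 and chr1:153113646-153113766, minus strand). FN1 holds the CREB motif TGACGTCA at -183 (chr2:215436184-215436311, minus strand).
TXNIP: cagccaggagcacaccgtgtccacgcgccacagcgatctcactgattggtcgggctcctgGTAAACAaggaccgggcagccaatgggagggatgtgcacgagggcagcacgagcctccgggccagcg
SPRR2A: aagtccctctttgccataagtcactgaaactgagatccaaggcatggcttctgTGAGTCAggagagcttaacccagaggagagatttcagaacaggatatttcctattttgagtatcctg
SPRR2F: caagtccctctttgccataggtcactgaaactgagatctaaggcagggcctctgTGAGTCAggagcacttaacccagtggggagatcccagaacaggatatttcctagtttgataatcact
FN1: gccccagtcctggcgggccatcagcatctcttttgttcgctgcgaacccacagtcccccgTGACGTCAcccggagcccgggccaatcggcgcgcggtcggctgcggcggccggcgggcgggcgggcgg

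The stretches of SPRR2A and SPRR2F are alike, and promoters of SPRR2C, SPRR2D and SPRR2E were not available. Such motifs are common, and the windows of 300 bases were searched on both strands. GTAAACA was in 3.41% of 27305 promoters, in 2.52% of the 12562 of measured genes, in 8 of 346 promoters of lower genes (2.31%) and in 2 of 175 of higher genes (1.14%). TGAGTCA was in 4.92% of all, in 3.70% of those of measured genes, in 6.29% of the promoters of higher genes and in 4.34% of those of lower genes. TGACGTCA was in 1.98% of all, 2.93% of measured, 2.29% of higher and 3.18% of lower genes. The E-box CACGTG was in 7.43% of all, 9.52% of measured, 11.4% of higher and 8.09% of lower genes, and the ATF4 motif TGATGCAA in 0.923% of all, 0.629% of measured, 1.14% of higher and 1.16% of lower genes. The E2F motif TTTCGCGC was in 0.546%, 0.916%, 1.14% and 1.45%, and the sterol element TCACCCCAC in 0.425%, 0.358%, 1.14% and 0.578%. None of these motifs contains another. The measured, higher and lower genes counted here lie outside raised background. The shares are counts of letters and do not show binding.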

How the data were processed

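Each of 3 Agilent SurePrint G3 arrays, 1 per condition, held U87WT 5 RNA in Cy5 and U87Mut 5 RNA in Cy3. The authors deposited, per the file headers from Agilent Feature Extraction 12.0.3.1, the median intensity of each spot and its local background, with other marks, such as well above background and non-uniform, as 0 or 1. Their own log2 ratios of the clones were not used here, since they do not separate the channels.

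The intensity values were corrected in R 4.3.3 with limma 3.58.1 by normexp with an offset of 50, fitted without the spots marked as non-uniform in foreground or background in either channel. Leaving out the foreground marks alone left the fitted background SD of the IGF1 Cy5 channel at 657, against 1.32 here. The 6 channels were quantile-normalized together. Spots with a Cy5 background above 1000 and their neighbors within 1 row or column were dropped, and repeated spots were averaged by probe. The offset understates the change of dim genes. Gene names came by RefSeq transcript from the GRCh38.p14 table, which matched 34864 of 36770 probes.

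The genes named are the 15 largest changes each way above the median level with probes of 1 sign, with and without raised background, the 5 largest at any level, genes that the study measured, and from each list the first 3 genes and up to 3 each way past the limit. Other genes were picked after their values were seen, and the rest of the members named from a list complete its count. The members and lists were chosen with earlier results of these data known. The number of arrays limits the precision. The steps were tested on simulated data.

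Alternatives were another background correction or normalization, other filters, a limit of 1, and the mean of the probes of a gene. Leaving out raised Cy5 background and fitting without foreground marks alone were added after seeing the data. Some genes that meet the rule are not reported here.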

Additional observations from a re-analysis of the deposited data

Results flagged for a closer look

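For 8 of 16310 genes outside raised Cy5 background the 2 clones were past 0.5 in opposite directions after IGF1. These were 1 of the 233 genes higher and 7 of the 469 lower in U87WT among those well above background in both channels. The difference was not tested. In U87WT PBX3 was at 0.63 (second probe 0.08), PRKAG2 at -0.59 and RIT1 at -1.61, beside -0.52, 0.60 and 0.59 in U87Mut. The other 5 are small noncoding RNAs. RN7SL1 was at -0.51 in U87WT and 1.31 in U87Mut, RNU2-1 at -0.81 and 0.59, RNVU1-18 at -0.53 and 0.73, SNORA28 at -0.75 and 0.59, and SNORD67 at -0.62 and 0.58. RIT1 read 8.06 in U87WT in serum-free medium, 6.45 after IGF1 and 6.38 with OSI906.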

How the results depend on the processing

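No paired analysis was possible because each condition has 1 array. A slide block could not be fitted since the arrays share 1 slide, and the mean spot signal was not run because the columns used here hold medians. The counts of probes and of genes that were higher and lower (521 and 763, 292 and 503) stayed within 1.5 times under most alternatives. They came to 1685, 2213, 778 and 1130 with an offset of 0, to 972, 1445, 511 and 836 with no background correction, and to 2518, 3442, 1069 and 1619 with the processed signal of the scanner software. Median centering gave 2570, 237, 1629 and 158, and a limit of 1 gave 97, 66, 50 and 43. With an offset of 20, 823 probes were higher. The cause was not tested. Among the named genes RPL13 turned to 0.36 and RPS2 to 0.081 with median centering, and RPL13 to 0.15 with centering on the 75th percentile. Without raised background STX5-DT turned to -0.052 and MARS1 to -0.052, since another probe then stands for the gene. TXNIP ran from -2.56 to -2.06, CCN5 from -1.82 to -1.53, MMP14 from -1.49 to -1.20 and SPRR2A from 1.18 to 2.48 over the main and alternative settings.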
